A study of Mus musculus with 8 samples.

Results

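Matricellular proteins are secreted into the extracellular matrix, where they bind integrins, proteoglycans, growth factors and structural fibres and adjust how cells respond to the matrix rather than holding it together. The genes described here are 9 that were chosen by name: Postn, Sparc, Tnc, Thbs1, Thbs2, Ccn1, Ccn2, Ccn4 and Fn1. All 9 were found, out of 53465 genes in the 3T3 count table, 31053 in the Scid.adh count table and 30731 in both. Fibronectin, the product of Fn1, is a scaffold glycoprotein of the matrix and is kept with the others because it belongs to the chosen set. In NIH-3T3 fibroblasts with induced TCF-1, Postn, Tnc, Ccn2, Fn1 and Thbs2 fell and Sparc and Ccn4 rose, against normal cells. In Scid.adh cells labelled as a Tcf7 knockout, Ccn4 and Ccn1 rose against cells with an empty vector, and the other 7 genes had at most 9 counts in any library.

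The series concerns TCF-1, the HMG-box DNA-binding protein that Tcf7 encodes and that early T cell development in the thymus requires, and its effect on genome folding. The RNA-seq libraries analysed here number 8, with 2 in each of 4 groups. The induced NIH-3T3 libraries have the genotype Tcf7 induced and the treatment TCF1 induced, and the normal ones are wild type and untreated; NIH-3T3 is an established mouse embryonic fibroblast line. The file headers of the 3T3 libraries name 72 hours and Cas9 in all 4 and doxycycline in the induced libraries alone, so doxycycline and TCF-1 cannot be told apart. The knockout Scid.adh libraries have the genotype Tcf7-/- and the treatment TCF1 KO, and the others are wild type with an empty vector; Scid.adh is a mouse thymic lymphoma line used as a model of the DN3 stage of thymocytes, and the titles call these cells DN3. The labels leave unsaid whether replicate libraries are separate cultures and whether the knockout line is 1 clone, so p-values here cover only the spread among the deposited libraries, and that spread may be technical.

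Periostin (Postn) and tenascin-C (Tnc) are made by fibroblasts during development and wound repair. Thrombospondins 1 and 2 (Thbs1, Thbs2) restrain new vessels, and thrombospondin-1 can release TGF-β from its latent form. SPARC binds collagen and calcium and shapes how collagen fibrils are laid down. CCN1, CCN2 and CCN4, earlier named CYR61, CTGF and WISP1, are modular proteins that act through integrins. In fibroblasts Ccn1 and Ccn2 are textbook targets of the YAP and TEAD transcription factors, of serum response factor and of TGF-β. Ccn4 was first described as a gene induced by Wnt signalling, which acts in the nucleus through factors that include TCF-1.

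RefSeq promoter windows (GRCm38.p6, 250 bases before a transcript start) were matched for 5 of the 9 genes, Postn, Sparc, Tnc, Thbs2 and Ccn1, with 7 windows in all; Thbs1, Ccn2, Ccn4 and Fn1 were not matched. The last 150 bases before a start are shown for the genes with the 2 largest falls in 3T3 and for Ccn1, which was not called in 3T3 and was higher in the Scid.adh knockout, with capitals marking motif matches on either strand.
Postn, chr3:54360957-54361106, plus strand: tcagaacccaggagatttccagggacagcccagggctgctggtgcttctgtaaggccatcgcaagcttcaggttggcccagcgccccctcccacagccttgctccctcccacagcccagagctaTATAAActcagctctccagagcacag
Tnc, chr4:64047016-64047165, minus strand: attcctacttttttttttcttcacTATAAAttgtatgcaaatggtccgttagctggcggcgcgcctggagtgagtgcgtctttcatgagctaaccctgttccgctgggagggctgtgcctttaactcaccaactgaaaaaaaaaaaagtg
Ccn1, chr3:145649986-145650135, minus strand: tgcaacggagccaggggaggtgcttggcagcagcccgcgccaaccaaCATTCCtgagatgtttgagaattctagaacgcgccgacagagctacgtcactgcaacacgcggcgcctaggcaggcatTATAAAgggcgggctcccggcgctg

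The capitals mark the TATA sequence TATAAA in the windows of Postn, Tnc and Ccn1, and in Ccn1 also CATTCC, the other strand of the TEAD motif GGAATG. The TATA sequence begins 26 bases before the start in Postn, 25 in Ccn1 and 126, much farther off, in Tnc. Among windows not printed, that of Thbs2 held it on the other strand, 126 bases before the start. The second Tnc window held the same Tnc site, 205 bases before its start, and the other Postn window did not hold the sequence. The search covered both strands for these and for the TCF/LEF motif CTTTGA, the AP-1 motif TGANTCA and the CArG box of serum response factor. Of 32851 promoter windows of this length, 13.8% held the TCF/LEF motif, 12.6% the TEAD motif, 6.75% the AP-1 motif, 1.47% a CArG box and 12.4% the TATA sequence. None of the 7 windows held the TCF/LEF motif, the AP-1 motif or a CArG box, which says only that these letters are not in these windows.

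Total gene counts were 13850213 to 17523677 in the 3T3 libraries and 7740198 to 10392402 in the Scid.adh libraries. Tcf7 was at 946 and 972 CPM (counts scaled to a common library size, with TMM factors for library composition) in induced 3T3 cells, against 14.5 and 14.6 CPM in normal cells, in the direction of the labels. In Scid.adh it was at 646 and 624 CPM in the knockout and 1318 and 1325 CPM with the empty vector, a log2 fold change of -1.06 ± 0.06 (SE; adjusted p = 5.06e-08, edgeR). Transcripts of Tcf7 thus remained in the knockout libraries, and counts over the whole gene do not check a small edit. Of 10 fibroblast markers all 10 passed the low-count filter in 3T3, and their summed level was 17863 and 17813 CPM in induced cells and 17938 and 17524 CPM in normal cells. Of the 10, 5 were higher and 3 lower in induced cells, where 18.5% of all tested genes were higher and 18.3% lower. Among genes at or above the abundance of Ccn4, 64.2% were higher or lower. Summed T lineage markers in Scid.adh were at 3510 and 3614 CPM in the knockout and 4499 and 4452 CPM with the empty vector, with 7 of 10 lower in the knockout and 0 higher, where 15.9% of all tested genes were lower and 15.6% higher. The part of this in the results for Scid.adh was not tested. In bulk RNA, fewer cells of a type and less RNA per cell cannot be told apart.

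In 3T3 all 9 genes passed the filter and were tested among 18185 genes. A gene was called when its adjusted p from the quasi-likelihood test of edgeR was under 0.05 (Benjamini-Hochberg, over all tested genes of the line). With TCF-1 induced, 5 of the 9 fell and 2 rose, and Ccn1 and Thbs1 were not called. Across all tested genes 36.8% were called, 18.3% lower and 18.5% higher, and among the 2800 genes with a mean CPM at or above that of Ccn4, the least abundant of the 9, 64.2% were called, the share against which 7 of 9 is to be read. The induced and normal libraries did not overlap for any of the 9, as for 65.1% of all tested genes. The median log2 fold change of the 9 was -0.21, beside 0.00037 over all tested genes.

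**Figure D1:**
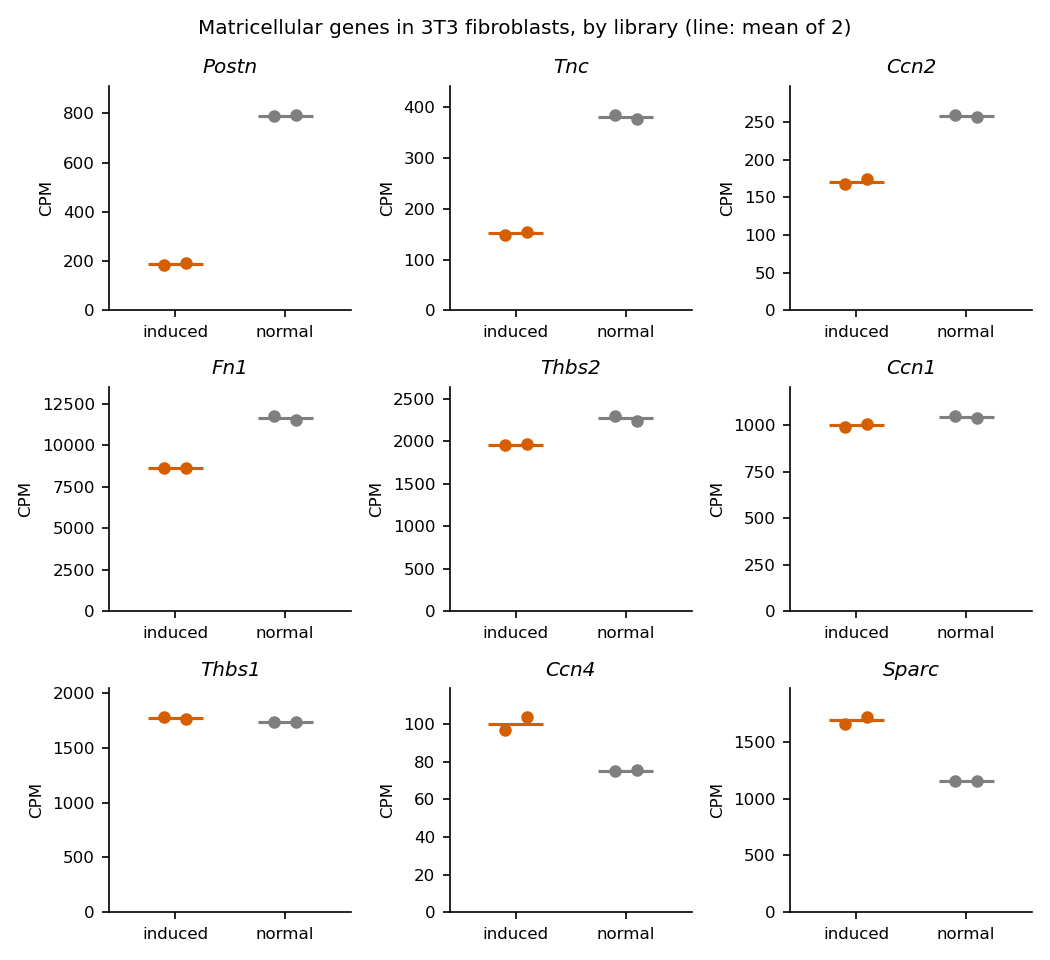
CPM of the 9 genes in each 3T3 library, with induced libraries left of normal ones and lines at the mean of 2. Postn, Tnc, Ccn2, Fn1 and Thbs2 lie lower in the induced libraries, Sparc and Ccn4 lie higher, and the libraries of a group lie close to each other.

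Periostin gave the largest fall. Postn, on chromosome 3 (54361109 to 54391037, plus strand, GRCm38), was at 183 and 192 CPM in induced cells and 790 and 792 CPM in normal cells. Its log2 fold change was -2.08 ± 0.04 (SE; adjusted p = 5.06e-39, edgeR), 4.22-fold lower. It ranked first among falls of the 2800 genes at or above the abundance of Ccn4. The gene starts a few bases after the printed window that holds TATAAA.

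Tenascin-C, a large glycoprotein that appears in healing wounds and tumour stroma, fell as well. Tnc (chromosome 4, 63959785 to 64047015, minus strand) was at 149 and 154 CPM in induced cells and 384 and 377 CPM in normal cells, both induced libraries lying below both normal ones. Its log2 fold change was -1.33 ± 0.04 (SE; adjusted p = 1.96e-30, edgeR), 2.51-fold lower and the 14th fall among the same 2800 genes. Postn and Tnc were the only 2 of the 9 whose change was also called in a test against a 1.5-fold change. An opposite-strand transcript, 8030451A03Rik, shares 176 bp of exon with Tnc and had a log2 fold change of -1.25; the labels do not state whether counting used strand, so their reads cannot be told apart with certainty.

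The thrombospondin genes differed from each other. Thbs2 (chromosome 17, 14665500 to 14694235, minus strand) was at 1953 and 1961 CPM in induced cells and 2292 and 2240 CPM in normal cells, a small fall of log2 -0.21 ± 0.03 (SE; adjusted p = 3.69e-08, edgeR). Thbs1 (chromosome 2, 118111876 to 118127133, plus strand) was at 1776 and 1763 CPM in induced cells and 1736 and 1734 CPM in normal cells. The induced libraries of Thbs1 lay only just above the normal ones, with a log2 fold change of 0.03 ± 0.03 (SE; adjusted p = 0.480, edgeR), which was not called. Thbs1 shares 208 bp of exon with the opposite-strand Gm29233, which was not called either.

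SPARC, the collagen-binding member, went the other way. Sparc (chromosome 11, 55394500 to 55423183, minus strand) was at 1657 and 1714 CPM in induced cells and 1156 and 1150 CPM in normal cells. Its log2 fold change was 0.55 ± 0.03 (SE; adjusted p = 3.37e-20, edgeR), 1.46-fold higher and the 118th rise among the 2800 genes.

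The 3 CCN genes did not move as a block. Ccn2 (chromosome 10, 24595442 to 24598683, plus strand) was at 167 and 174 CPM in induced cells and 259 and 256 CPM in normal cells, with a log2 fold change of -0.59 ± 0.04 (SE; adjusted p = 3.43e-17, edgeR). Ccn1 (chromosome 3, 145646976 to 145649981, minus strand) was at 990 and 1008 CPM in induced cells and 1048 and 1038 CPM in normal cells. Its log2 fold change of -0.06 ± 0.03 (SE; adjusted p = 0.107, edgeR) was not called, though it was called in the fit without induced replicate 2 (log2 -0.07, adjusted p = 0.00790, edgeR). Ccn4 (chromosome 15, 66891320 to 66923201, plus strand) was at 96.7 and 104 CPM in induced cells and 74.8 and 75.4 CPM in normal cells. It rose by 0.41 ± 0.05 on the log2 scale (SE; adjusted p = 5.80e-09, edgeR), 1.33-fold. Ccn2 shares 665 bp of exon with Gm15270 on the opposite strand, whose log2 fold change was -0.54.

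Fibronectin was the most abundant of the 9. Fn1 (chromosome 1, 71585520 to 71653200, minus strand) was at 8612 and 8605 CPM in induced cells and 11745 and 11493 CPM in normal cells. It fell by 0.43 on the log2 scale (SE 0.03; adjusted p = 2.76e-18, edgeR), 1.35-fold lower, and shares 292 bp of exon with the opposite-strand Apol7d, whose log2 fold change was -0.39. The summed level of the 9 genes was 15584 and 15675 CPM in induced cells and 19484 and 19155 CPM in normal cells. Fn1 gave 55.3% and 54.9% of that sum in induced cells and 60.3% and 60.0% in normal cells, so most of the fall in the sum was Fn1. Without Fn1 the sum was 6972 and 7070 CPM in induced cells and 7738 and 7662 CPM in normal cells.

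Per kilobase of exon, the levels in induced cells ran from Fn1 (737 CPM per kb) through Ccn1 (495), Sparc (445), Thbs1 (291), Thbs2 (279), Ccn2 (59.6), Postn (21.5) and Tnc (19.5) to Ccn4 (18.0 CPM per kb). In normal cells the order was Fn1 (994 CPM per kb), Ccn1 (516), Thbs2 (324), Sparc (304), Thbs1 (286), Postn (90.9), Ccn2 (90.0), Tnc (48.9) and Ccn4 (13.5 CPM per kb). No neighbours in either order overlapped between their 2 libraries, but in normal cells Postn (90.8 and 91.0) and Ccn2 (90.4 and 89.5 CPM per kb) lay next to each other, too close to order with 2 libraries each. In the induced cells Postn stood between Ccn2 and Tnc, and Sparc stood above both thrombospondin genes. The lengths are exon unions of the annotation, so isoform use was not taken into account.

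**Figure D2:**
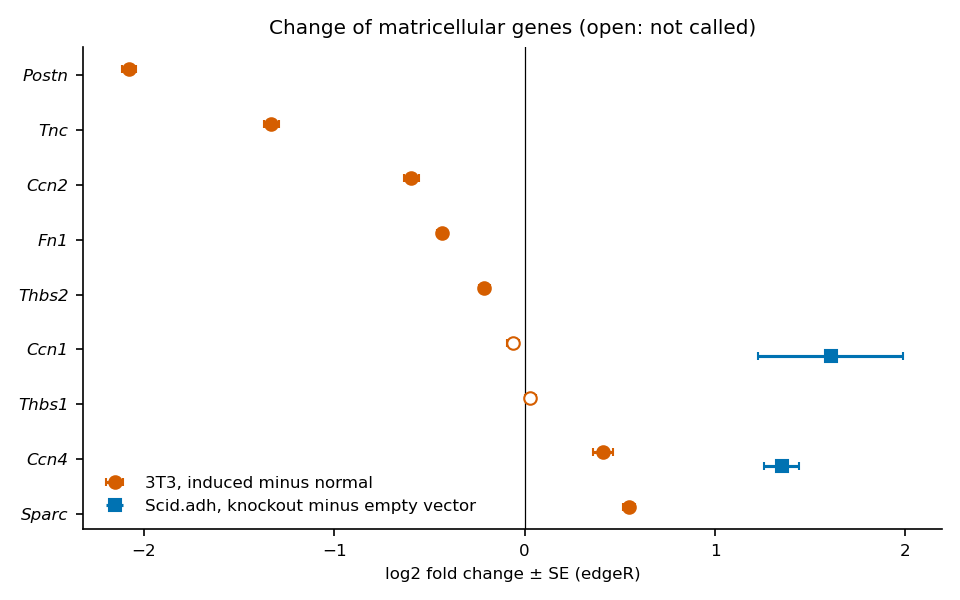
Log2 fold change with its standard error for each tested gene in 3T3 (induced minus normal, circles) and Scid.adh (knockout minus empty vector, squares); open symbols were not called. The 3T3 values run from -2.08 for Postn to 0.55 for Sparc, and the 2 genes tested in Scid.adh, Ccn1 and Ccn4, lie at 1.61 and 1.35.

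In Scid.adh, only Ccn1 and Ccn4 passed the filter among 11941 tested genes, Ccn1 through its knockout libraries alone, and both rose in the knockout. The groups did not overlap for either, as for 66.7% of all tested genes. Ccn4 had 794 and 905 counts in the knockout and 399 and 373 counts with the empty vector. That is 96.5 and 107 CPM in the knockout and 40.2 and 39.8 CPM with the empty vector, a log2 fold change of 1.35 ± 0.09 (SE; adjusted p = 5.62e-07, edgeR), 2.55-fold higher. Ccn4 gave most of the expression of this set in these cells: of 102 and 113 CPM summed over the 9 genes in the knockout, and 42.5 and 41.7 CPM with the empty vector, Ccn4 made 94.4% to 95.5% in each library. Across all tested genes 31.5% were called, 15.6% higher and 15.9% lower.

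Ccn1 rested on far fewer reads, with 28 and 25 counts in the knockout and 11 and 9 counts with the empty vector. It passed the filter through its knockout libraries alone, a selection that favours a rise. Its level was 3.40 and 2.97 CPM in the knockout and 1.11 and 0.961 CPM with the empty vector, a log2 fold change of 1.61 ± 0.38 (SE; adjusted p = 0.00675, edgeR). The call was lost without empty-vector replicate 2 (adjusted p = 0.0521, edgeR), with DESeq2 (adjusted p = 0.0665) and in the test against a 1.5-fold change (adjusted p = 0.0542, edgeR). Low genes as a class were higher in the knockout: of the 2941 tested genes with a mean under 5 CPM, 31.9% were called higher and 4.56% lower. The knockout libraries had 20406 and 20463 genes with a count and the empty-vector libraries 18084 and 18041, although their total counts were 7740198 and 8217933 in the knockout and 10392402 and 9847239 with the empty vector. The part of this shift in the result for Ccn1 was not tested.

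The other 7 genes did not pass the filter in Scid.adh and were not tested. Fn1 had 8 and 9 counts in the knockout and 5 and 3 with the empty vector. Thbs1 had 4 and 2 counts in the knockout and 4 and 1 with the empty vector, Thbs2 had 2 and 1 in both groups, Ccn2 had 2 and 3 in the knockout and 1 and 2 with the empty vector, and Tnc had 2 and 0 in the knockout and 0 and 2 with the empty vector. Postn had 1 and 2 counts in the knockout and none with the empty vector, and Sparc had 0 and 1 in the knockout and none with the empty vector, where a count of 0 allows up to 3 counts in a library. Summed over the 7, there were 19 and 18 counts in the knockout and 12 and 9 with the empty vector, too few to read a difference for any one of them. The ratio of Fn1 to Ccn1 counts was 0.286 and 0.360 in the knockout and 0.455 and 0.333 with the empty vector, against 8.54 to 11.2 in the 3T3 libraries. These Scid.adh ratios rest on 3 to 9 counts of Fn1 in a library. Of the 10 fibroblast markers, 3 of the 6 that were tested rose and 3 fell in the knockout, where 15.6% of all tested genes rose and 15.9% fell. The summed level of the 10 was 409 and 376 CPM in the knockout and 677 and 717 CPM with the empty vector, where Col3a1, Dcn and Lum were at 0. Little of it was collagen. Col1a1 averaged 1.74 CPM in the knockout and 0.36 CPM with the empty vector, and Col1a2 2.34 and 0.67 CPM. Both were called higher, having passed the filter through their knockout libraries alone. The sum is therefore not read as a fibroblast level.

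**Figure D3:**
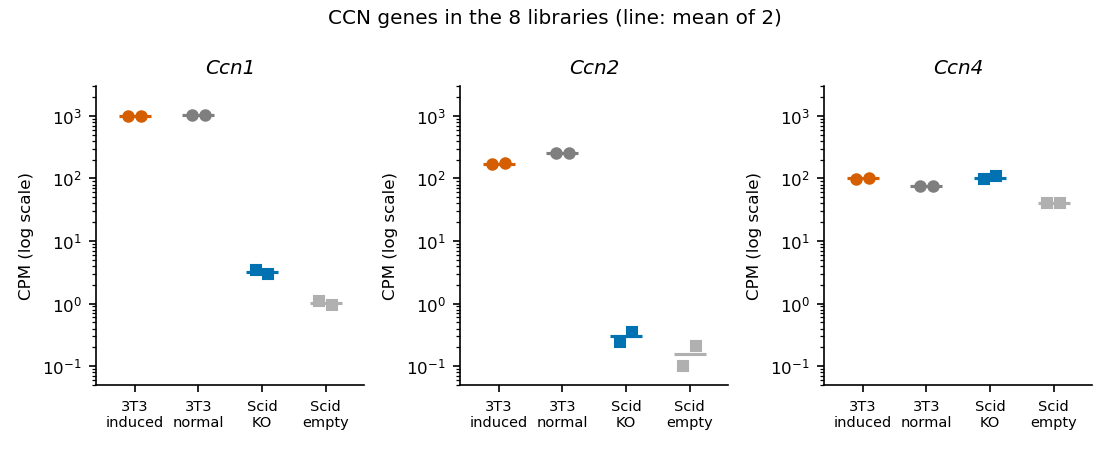
CPM of Ccn1, Ccn2 and Ccn4 on a log scale in the 8 libraries, each treated group left of its own comparison, with lines at the mean of 2. Ccn1 and Ccn2 lie far lower in Scid.adh than in 3T3, whereas Ccn4 lies between 39.8 and 107 CPM in all 8 libraries.

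The change in 3T3 was set against the change in Scid.adh in a fit of all 8 libraries, where gain and loss of TCF-1 are opposite manipulations and the tables were counted separately. For Ccn4, the change in 3T3 minus that in Scid.adh was -0.93 ± 0.10 on the log2 scale (SE; adjusted p = 7.12e-09, edgeR): the gene was higher after both manipulations, and more so in the Scid.adh knockout. For Ccn1 the difference was -1.67 ± 0.28 (SE; adjusted p = 3.81e-05, edgeR), the joint fit giving log2 -0.08 in 3T3 and 1.59 in Scid.adh. These are the 2 of the 9 genes that passed the filter in both lines, Ccn1 in Scid.adh through its knockout libraries alone. Across all 15854 genes tested, 30.7% were called. The other 7 entered this fit through their 3T3 counts alone, so no difference between the lines is read for them.

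The genes around this set were taken from 6 lists, with 97 genes tested in 3T3, of which 36 rose and 35 fell. Over all tested genes 18.5% rose and 18.3% fell, and 64.2% were called among genes at or above the abundance of Ccn4. Among other matricellular genes 4 rose and 8 fell of 16 tested, with a median log2 fold change of -0.08. Tnr, tenascin-R, best known from nervous tissue, was at 38.1 ± 3.68 CPM in induced cells and 5.92 ± 0.41 CPM in normal cells (SD, n = 2 each), a rise of log2 2.68 ± 0.11 (SE). Tnxb, tenascin-X, rose by log2 1.39, so of the tenascins named here Tnc fell while Tnr and Tnxb rose. Ccn3, a CCN gene often opposed to Ccn2 in its actions, fell by 1.44 on the log2 scale, and Sparcl1, the closest relative of Sparc, fell by 1.22, opposite to Sparc itself.

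Receptors were split, with 7 higher and 7 lower of 18 tested and a median of 0.00297. Sdc1 and Sdc4, the syndecan proteoglycans that bind fibronectin, rose by log2 1.27 and 0.66. The integrin subunit gene Itga9, which encodes a tenascin-C receptor, rose by log2 0.75, whereas Itga8, whose product binds fibronectin and tenascin-C, fell by 1.33 on the log2 scale. Among matrix partners, the collagens, crosslinkers and processing enzymes, 8 rose and 2 fell of 14 tested, with a median log2 fold change of 0.26. Fbn1, fibrillin-1, was at 686 CPM in induced cells and 307 CPM in normal cells (log2 1.16). Tgm2, a crosslinking transglutaminase, rose by log2 0.88, Col5a1, a fibril-initiating collagen chain, by 0.85, and Bmp1, the procollagen proteinase, by 0.82. The 2 that fell were Lox, the lysyl oxidase that crosslinks collagen (log2 -0.54), and, only slightly, Col3a1 (log2 -0.09).

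Proteases and inhibitors gave 6 rises and 4 falls of 14 tested, with a median of 0.05. Mmp9, the gelatinase B gene, was at 66.1 CPM in induced cells and 18.3 CPM in normal cells (log2 1.86), and the inhibitor genes Timp1 and Timp3 rose by log2 0.96 and 0.55. Adamts4, an aggrecanase gene, rose by log2 0.83. The components of the TGF-β, YAP and serum response factor pathways gave 4 rises and 9 falls of 19 tested, with a median of -0.10. Tgfb2, a TGF-β ligand, fell by 0.77 on the log2 scale, Smad7, an inhibitory SMAD induced by TGF-β, fell by 0.66, and Mrtfa, the actin-sensing partner of serum response factor, fell by 0.45; Tead3, a DNA-binding partner of YAP, rose by 0.42. Other target genes of YAP and serum response factor gave 7 rises and 5 falls of 16 tested, with a median of 0.09. Ankrd1, Tagln and Tpm1 fell by 0.75, 0.65 and 0.63 on the log2 scale, like Ccn2, and Nuak2 rose by 1.32. All changes named from the lists in 3T3 were called by edgeR. These lists were chosen with earlier results of these data known, and their counts are a description.

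**Figure D4:**
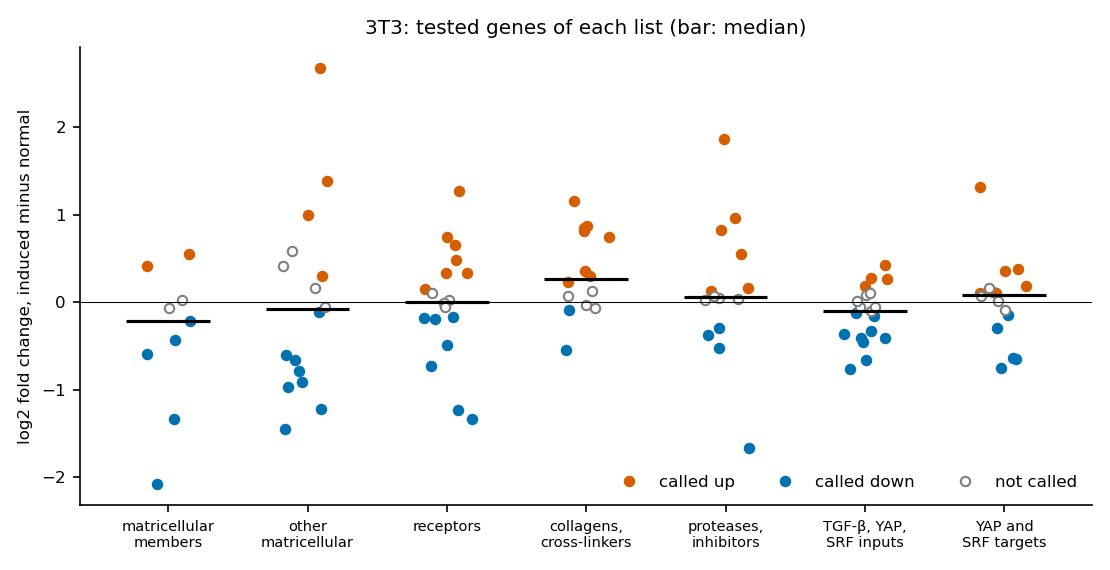
Log2 fold change (induced minus normal 3T3) of the 9 genes (left) and of each tested gene of the 6 lists; filled points were called, open ones were not, and bars are medians. The 9 genes have a median of -0.21. The matrix partners have a median of 0.26, with 8 rises and 2 falls of 14, and the other 5 lists have medians between -0.10 and 0.09.

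In Scid.adh 53 genes of the same lists were tested, of which 21 rose and 7 fell, where 15.6% and 15.9% of all tested genes did, and 14 of the 21 rises were of genes with a mean under 5 CPM, the class in which 31.9% of all tested genes rose. Some low genes of these lists passed the filter through their knockout libraries alone, a selection that favours a rise. Among other matricellular genes 3 rose and 0 fell of 8 tested. Tnxb was at 5.84 ± 1.37 CPM in the knockout and 2.45 ± 0.76 CPM with the empty vector (SD, n = 2 each), a log2 fold change of 1.25. The remaining 2, Comp (2.77) and Spock1 (2.79), were named after their values were seen. Comp had 12 and 13 counts in the knockout and 1 and 3 with the empty vector, and Spock1 had 50 and 53 against 7 and 10. Comp and Spock1 passed the filter through their knockout libraries alone. Tnxb, Comp and Spock1 each averaged under 5 CPM. Receptors gave 4 rises and 2 falls of 14: Itgav, the αv integrin subunit, rose by log2 0.43 and Lrp1, an endocytic receptor for thrombospondins, by 0.74, the second of these lost in 5 of 13 alternative settings. Itgb6 fell by 0.98 and Lrp5, a Wnt coreceptor, by 0.35 on the log2 scale.

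Matrix partners gave 5 rises and 0 falls of 8 in Scid.adh, and Col5a1, at 8.11 CPM in the knockout and 4.71 CPM with the empty vector, was the one of at least 5 CPM on average (log2 0.78, lost in 4 of 13 alternatives). The other matrix partners that rose passed the filter through their knockout libraries alone. Proteases and inhibitors gave 2 rises and 2 falls of 5. Timp2, a metalloproteinase inhibitor, was at 224 CPM in the knockout and 533 CPM with the empty vector, a fall of log2 -1.25, and Ctsb, cathepsin B, fell by 0.47. Mmp9 rose by log2 0.59, a call lost in 5 of 13 alternatives. Pathway components gave 4 rises and 3 falls of 13, with Tgfb1, Mrtfa and Smad3 lower by log2 -0.60, -0.44 and -0.35 and Tgfbr1, the type I TGF-β receptor gene, higher by 0.36. Of 13 alternative settings, the call was lost in 3 for Tgfb1, in 2 each for Smad3, Tgfbr1, Tnxb and Lrp5, and in 1 for Mrtfa. Target genes gave 3 rises and 0 falls of 5, and the 3 that rose passed the filter through their knockout libraries alone. The most abundant target gene, the tropomyosin gene Tpm1, was at 99.8 CPM in the knockout and 107 CPM with the empty vector. It was not called (adjusted p = 0.336, edgeR).

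Of the neighbours of Ccn4, looked at after its values were seen, Ndrg1 and, by less, St3gal1 changed in opposite directions in the 2 lines. Ndrg1, a stress-responsive gene that ends 6.12 kb beyond the end of Ccn4 on the opposite strand, was at 105 and 111 CPM in induced 3T3 cells and 270 and 266 CPM in normal cells, a log2 fold change of -1.31 ± 0.04 (SE; adjusted p = 1.29e-28, edgeR), opposite to Ccn4. In Scid.adh Ndrg1 was at 37.3 and 37.5 CPM in the knockout and 1.81 and 1.92 CPM with the empty vector, a log2 fold change of 4.32 ± 0.19 (SE; adjusted p = 1.05e-08, edgeR), the same direction as Ccn4. On the other side, Sla, an adaptor that restrains T cell receptor signalling, was at 131 and 144 CPM in the knockout and 66.1 and 61.0 CPM with the empty vector (log2 1.12, adjusted p = 1.23e-06, edgeR). Sla was not among the tested genes in 3T3. In 3T3 the transcript Gm17035, within Ndrg1 on the other strand, had a log2 fold change of -1.16 and was called. Gm2895, which overlaps one end of Ndrg1 on the other strand, had -1.32 ± 0.50 (SE; adjusted p = 0.0350, edgeR). That call rests on few reads, at 0.530 and 0.144 CPM in induced cells and 0.813 and 0.977 CPM in normal cells. Gm17035 and Gm2895 were not among the tested genes in Scid.adh. Tg, the thyroglobulin gene, whose end lies 40.6 kb before Ccn4 and nearer than Sla, was not called in 3T3 (log2 -0.03, adjusted p = 0.972, edgeR) or in Scid.adh (log2 0.66, adjusted p = 0.155, edgeR). Farther genes moved less: St3gal1 had log2 0.15 in 3T3 and -0.24 in Scid.adh, both called, and Phf20l1 was not called in either line. The gene bodies of Sla and Tg overlap on opposite strands.

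**Figure D5:**
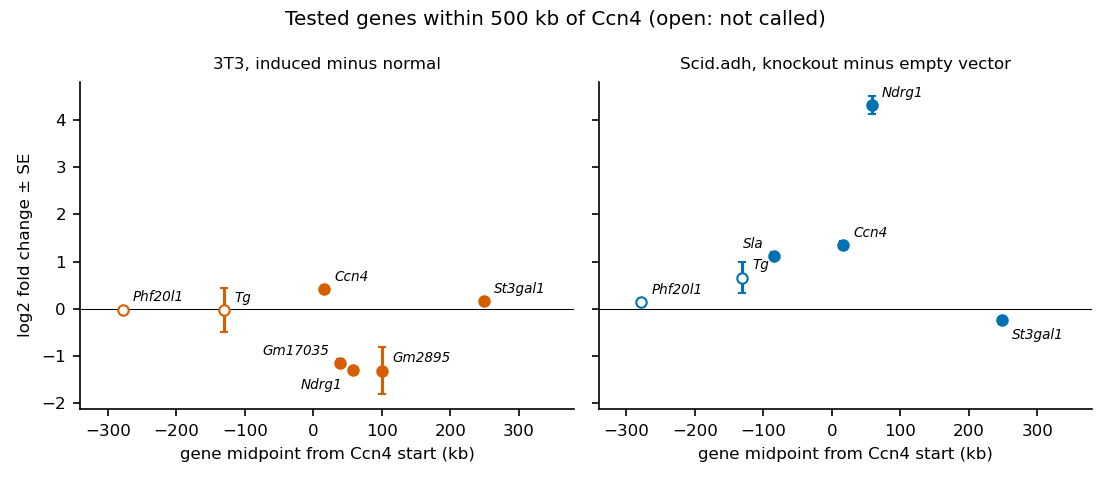
Log2 fold change with its standard error of the tested genes within 500 kb of Ccn4, placed by the distance of the gene's middle from the start of Ccn4 in kb, in 3T3 (induced minus normal) and Scid.adh (knockout minus empty vector). Ndrg1 lies at -1.31 in 3T3 and at 4.32 in Scid.adh, and Ccn4 lies above 0 in both.

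The genes whose pattern over the 8 libraries was most like each of the 9 were found by the Euclidean distance between centred log2 CPM profiles, among 10963 genes, as a description; the gap between the lines weighs most in it. Postn was nearest to Ptgs2 (distance 0.994) and Ptn (1.68), which also had negative log2 fold changes in 3T3 (-1.37 and -1.15). Ccn2 was nearest to Emp1 (0.514) and Sgk1 (0.609), with log2 fold changes of -0.34 and -0.68 in 3T3. Ccn1 had the closest match of the 9, Cdh2 (0.242), followed by Sh3pxd2b (0.307), with log2 fold changes of 0.06 and 0.14 in 3T3. Sparc was nearest to Bgn (0.929) and Nid1 (1.06), Fn1 to Bgn (0.901) and AY036118 (1.14), and Tnc to Anxa5 (1.24) and Aebp1 (1.29). Log2 fold changes in 3T3 were 0.12 for Bgn, opposite in sign to Fn1, and 1.23 for Nid1. They were -0.19 for AY036118, -0.49 for Anxa5 and -0.50 for Aebp1. Thbs1 was nearest to Cald1 (0.861) and Pakap (0.976), and Thbs2 to Gm20721 (0.779) and Vim (0.848). Log2 fold changes in 3T3 were -0.08 for Cald1, -0.02 for Pakap, 0.07 for Gm20721 and -0.49 for Vim. Ccn4 was nearest to H1fx (0.396) and 1700020L24Rik (0.419), whose log2 fold changes were 1.49 and 1.35 in Scid.adh and 0.24 and 0.0037 in 3T3. Genes near in profile thus did not always share the change in 3T3.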

How the data were processed

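The authors deposited raw gene counts in 1 file for each library. Per the labels' protocols, total RNA was made into libraries with a stranded low-input total RNA kit and read in pairs. The tools were STAR 2.5.0a and HTSeq 0.6.1 with GRCm38, per the submitters' processing notes. The 3T3 files are not in HTSeq's layout, and, per the file headers, come from merged alignment files; no source used here gives their counting program, annotation release or strand setting. Rows for unassigned reads, in the Scid.adh files alone, were left out (24.7% and 28.0% of reads in the knockout, 23.6% and 23.9% with the empty vector).

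Each line was fitted on its whole table with edgeR 4.0.16 (R 4.3.3): filterByExpr, TMM, robust quasi-likelihood F-test and Benjamini-Hochberg adjustment. Variation between replicate libraries beyond counting noise (coefficient from edgeR) came to 2.41% for 3T3 and 5.94% for Scid.adh, and may be technical. Replicates differed beyond sampling noise in every group and were counted as 2. Chi-square per degree of freedom was 1.17 in normal 3T3, 1.91 in induced 3T3, 1.97 with the empty vector and 6.89 in the knockout. Positions, symbols and lengths came from GENCODE M21. Alternatives were run with DESeq2 1.42.0 and limma 3.58.1, and the steps were tested on simulated data. Further genes were named by rule: up to 4 called genes per list and line with the largest change, averaging 5 CPM or more, whose groups did not overlap, or the most abundant gene where none passed. The genes and lists were chosen with earlier results of these data known.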

Additional observations from a re-analysis of the deposited data

Results flagged for a closer look

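The log2 fold change in 3T3 (induced minus normal) minus that in Scid.adh (knockout minus empty vector) passed the test of the difference between the lines, from edgeR's joint fit, for both genes of the 9 that passed the filter in each line. It was -0.93 for Ccn4 and -1.67 for Ccn1, and both were called in all 10 alternatives. In Scid.adh, Ccn1 passed the filter through its knockout libraries alone. The same fit gave -6.27 for Postn and -1.71 for Fn1, but these genes entered it through their 3T3 counts alone. In Scid.adh, Postn had 1 and 2 counts in the knockout and none with the empty vector, and Fn1 had 8 and 9 counts in the knockout and 5 and 3 with the empty vector. Their fitted values depend on these few counts, did not keep a call when some single Scid.adh libraries were left out, and are not read as a difference between the lines.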

How the results depend on the processing

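With 13 alternatives per line and 10 for the difference between lines, no value named here changed sign past its threshold. In 3T3, the 2 rises and 5 falls of the 9 genes stayed at 2 and at 5 or 6 with each library left out (Ccn1 being the sixth), and the test against 1.5-fold left 0 rises and 2 falls, Postn and Tnc. Ccn1 was also called lower by limma-voom (adjusted p = 0.0312). In Scid.adh the count of rises was 1 to 2 with each library left out, 1 with DESeq2 and 1 against 1.5-fold, Ccn4 being the gene called in all of these. Over all genes, the 6693 calls in 3T3 became 4012 with DESeq2 and 917 against 1.5-fold, and the 3760 in Scid.adh became 1960 and 724, and 2221 to 4210 with each library left out. The fit between lines called 4 genes, Postn and Fn1 among them on few Scid.adh counts, and 2 to 4 with each library left out (2 without knockout replicate 2); Ccn4 and Ccn1 were called each time. Same-numbered replicates shared only a number (correlation of deviations 0.0987 in 3T3 and -0.0125 in Scid.adh); with the number as a replicate block the 9 genes gave 2 rises and 5 falls in 3T3 and 2 rises in Scid.adh, and all genes gave 7210 and 4038 calls. The list counts moved by over 1.5 times in 45 of 312 recounts, 18 of them against 1.5-fold. The cause was not tested, except that a lone library left in a group was assumed to vary like the other group and that the 1.5-fold test asks for a larger change. The 7 genes untested in Scid.adh had at most 9 counts in a library, and no difference is read for them there.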

Other observations

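Beside Ccn4, the nearest tested genes on each side of the other 8 genes were looked at in 3T3, after the values were seen. Over all 9 genes there were 18 such flanking genes, of which 9 were called, where 36.8% of all tested genes were. Of those 9, 7 moved in the direction of the called gene they flank, Ndrg1 moved opposite to Ccn4, and Gm17501 flanks Ccn1, which was not called. Of these 7, 8030451A03Rik, Gm15270 and Apol7d overlap Tnc, Ccn2 and Fn1 on the opposite strand and may share reads with them. The others were Smoc2, a matricellular gene 261 kb from Thbs2 (log2 -0.97), Enpp1, 39.2 kb from Ccn2 (-0.62), Supt20, 302 kb from Postn (-0.20), and Atox1, 23.5 kb from Sparc (0.25). Atic, the gene 5.89 kb from Fn1, had a log2 fold change of -0.02 and was not called.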
